A study of Arabidopsis thaliana with 16 samples.

Results

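The 10 gibberellin oxidase genes described here are *GA20OX1*, *GA20OX2* and *GA20OX3*, *GA3OX1* and *GA3OX2*, and *GA2OX1*, *GA2OX2*, *GA2OX6*, *GA2OX7* and *GA2OX8* of *Arabidopsis thaliana*. They were found by their locus identifiers among the 31133 named loci of the expression tables, and each had a row of its own, joined to no other gene. The RNA-seq libraries were made from dissected roots or shoots of etiolated (dark-grown) seedlings aged 3 days that were given 10 ppm ethylene in hydrocarbon-free air, or that air alone, for 4 h. The seedlings were *cbp20*, a mutant in the gene for the smaller of the 2 cap-binding proteins of the nucleus, or the wild type Col-0 in whose background that mutant stands. The 8 groups were *cbp20* roots, Col-0 roots, *cbp20* shoots and Col-0 shoots, each in ethylene and in air, with 2 libraries per group. The deposited tables give 1 level per group in FPKM (fragments per kilobase of transcript, scaled to the number of mapped fragments), so that no spread between the 2 libraries can be given and depth is unknown.

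Gibberellins are growth hormones that drive the elongation of stems and roots. GA20-oxidases and then GA3-oxidases carry out the last steps that make the active hormone. GA2-oxidases remove it: *GA2OX1*, *GA2OX2* and *GA2OX6* encode enzymes that act on the active gibberellins and their direct precursors, while *GA2OX7* and *GA2OX8* encode enzymes that act on earlier, longer precursors. Active gibberellin binds GID1 receptors and leads to loss of the DELLA proteins, which restrain growth. Ethylene shortens the hypocotyl and the root of etiolated seedlings.

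In ethylene, *GA3OX1* was lower in all 4 tables, by between 1.29-fold in Col-0 shoots and 2.84-fold in *cbp20* shoots. The share of all loci lower in all 4 tables was not computed. How common that pattern is, for *GA3OX1* or for other members below, is therefore not known. *GA2OX6*, the most abundant of the 10 genes in roots, was higher in ethylene in roots of *cbp20* and of Col-0, by 1.89-fold and 1.60-fold. In shoots *GA2OX6* was 1.87-fold lower in ethylene in *cbp20* and 1.13-fold higher in Col-0. *GA2OX8* was higher in ethylene in shoots, by 2.06-fold in *cbp20* and 4.05-fold in Col-0, and lower in roots. *GA2OX1* was listed at 0 or at 0.0573 FPKM in every ethylene group, against 4.36 and 6.53 FPKM in the shoots kept in air. Of these, the fall of *GA2OX1* in shoots was the one that passed the test across tables, and it lost that call under 5 of 6 alternatives.

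The bases just before the genes that carry these differences are shown because the same genes are followed through all groups below. They are the 200 bases before the first base of the gene in the RefSeq annotation of TAIR10.1, read 5′ to 3′ on the strand of the gene. Capitals mark matches to 5 patterns searched on both strands.
GA3OX1 (minus strand, chr1:5346343-5346542): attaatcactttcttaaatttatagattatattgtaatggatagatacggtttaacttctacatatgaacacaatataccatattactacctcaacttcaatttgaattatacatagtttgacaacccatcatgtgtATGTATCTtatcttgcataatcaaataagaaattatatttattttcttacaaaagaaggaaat
GA2OX1 (minus strand, chr1:29513101-29513300): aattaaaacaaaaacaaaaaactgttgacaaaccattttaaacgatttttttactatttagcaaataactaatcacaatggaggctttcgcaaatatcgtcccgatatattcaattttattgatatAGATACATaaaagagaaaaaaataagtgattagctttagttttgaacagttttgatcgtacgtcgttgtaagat
GA2OX6 (plus strand, chr1:486600-486799): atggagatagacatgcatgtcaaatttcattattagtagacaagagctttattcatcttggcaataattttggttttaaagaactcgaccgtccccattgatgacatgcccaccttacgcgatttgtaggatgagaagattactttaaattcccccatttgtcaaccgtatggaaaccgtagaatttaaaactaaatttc
GA2OX8 (plus strand, chr4:11302482-11302681): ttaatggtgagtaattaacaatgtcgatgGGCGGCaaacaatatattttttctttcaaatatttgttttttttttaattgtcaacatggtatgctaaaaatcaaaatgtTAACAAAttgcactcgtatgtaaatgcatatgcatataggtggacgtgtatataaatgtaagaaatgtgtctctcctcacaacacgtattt
The patterns were searched in a window from 250 bases before to 50 bases after the gene start. They were ATGNANCT, which covers the site bound by EIN3, the main transcription factor of ethylene signalling; GCCGCC, the GCC box bound by ethylene response factors; GCCGAC, the element bound by DREB proteins such as DDF1; CACGTG, the G-box; and TAACAAA, a gibberellin response element of cereal promoters. *GA3OX1* held 1 match to ATGNANCT at position -63, and *GA2OX1* held 1 on the reverse strand at -74. Both matches have the same letters when read on the strand of the match. Among all 27443 windows of protein-coding genes 14.8% held that pattern, so 2 of 10 is near the share of all genes. *GA2OX8* held GCCGCC on the reverse strand at -171, a pattern found in 2.57% of all windows, and TAACAAA at -91, found in 18.4%. No match to CACGTG (7.68% of windows) or GCCGAC (3.28%) was found in any of the 10, and *GA2OX6* held none of the 5 patterns. A match is a run of letters and says nothing on binding.

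In TAIR10.1 coordinates *GA20OX1* (AT4G25420) lies on chromosome 4 from 12990851 to 12992585, *GA20OX2* (AT5G51810) on chromosome 5 from 21055179 to 21056881, and *GA20OX3* (AT5G07200) on chromosome 5 from 2243553 to 2245339. *GA3OX1* (AT1G15550) lies on chromosome 1 from 5344388 to 5346342 and *GA3OX2* (AT1G80340) on the same chromosome from 30200466 to 30202349. *GA2OX1* (AT1G78440, 29511561 to 29513100), *GA2OX2* (AT1G30040, 10537457 to 10540044), *GA2OX6* (AT1G02400, 486800 to 489651) and *GA2OX7* (AT1G50960, 18889473 to 18891838) are on chromosome 1 as well. *GA2OX8* (AT4G21200) lies on chromosome 4 from 11302682 to 11306770. All 10 have 2 or 3 exons in their longest transcript, with coding sequences of 990 to 1143 bases. The longest run of bases that transcripts of any 2 of them share is 29 bases, between *GA20OX1* and *GA20OX2*.

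The labels held in the checks that the tables allow. *CBP20* itself was at 0.509 to 2.14 FPKM in the *cbp20* groups, against 23.8 to 35.8 FPKM in the Col-0 groups. *ERS2*, which encodes an ethylene receptor and is a known ethylene-induced gene, was 2.10-fold to 9.11-fold higher in ethylene in the 4 tables. The summed level of 5 root markers was 165 to 380 FPKM in roots, against 19.5 to 24.5 FPKM in shoots, and in roots it was higher in ethylene (380 FPKM against 181 FPKM in air in *cbp20*, and 310 FPKM against 165 FPKM in air in Col-0). *EXPA7*, *EXPA18* and *COBL9*, which are expressed in root hair cells, were 1.5-fold or more higher in ethylene in roots of both genotypes. *PIN2* was not, at 27.8 FPKM in ethylene against 23.8 FPKM in air in *cbp20* roots and 30.4 against 31.4 FPKM in Col-0 roots. *PLT1* had 0.542 FPKM in ethylene against 1.07 FPKM in air in *cbp20* roots, and 1.03 against 0.718 FPKM in Col-0 roots. The summed level of 5 shoot markers was 92.7 to 449 FPKM in roots, against 10908 to 15195 FPKM in shoots. Among roots it was higher in *cbp20* roots (449 FPKM in ethylene and 342 FPKM in air) than in Col-0 roots (92.7 and 160 FPKM). The difference came through *RBCS1A* and *CAB1*. *STM*, which marks the shoot meristem, was at 0 in 3 of the 4 root groups and at 0.896 FPKM in *cbp20* roots in ethylene. *FIL* had 0.707 FPKM in ethylene and 0.522 FPKM in air in *cbp20* roots, and 0.588 and 0.325 FPKM in Col-0 roots. *YAB3* had 0.667 FPKM in ethylene and 1.36 FPKM in air in *cbp20* roots, and 0.703 and 0.607 FPKM in Col-0 roots. The part of these markers in the root levels below was not tested. In whole roots and shoots, fewer cells of a type and less RNA per cell cannot be told apart.

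Within a table a gene was counted when it had at least 1 FPKM in ethylene or air and no group at 0, and it was called past the fold at 1.5-fold or more, which describes the groups and is no test. In *cbp20* roots 1 of the 5 members counted was higher in ethylene and 2 were lower, where 13.2% and 14.5% of all 17298 loci counted were. In Col-0 roots 1 of 6 was higher and 3 were lower, against 15.2% and 15% of 17265 loci. In *cbp20* shoots 1 of 6 was higher and 4 were lower, against 15% and 20.6% of 17270 loci. In Col-0 shoots 1 of 8 was higher and 4 were lower, against 15% and 20.6% of 17409 loci. The median log2 ratio of the members counted was -0.47, -0.44, -0.91 and -0.53 in these 4 tables, while that of all loci lay between -0.01 and 0.02. Many of the members are weakly expressed, and weak loci pass the fold more often: of loci with 1 to 5 FPKM in the higher group, 48.3% to 57.1% passed it in one direction or the other. The members that could not be counted were either under 1 FPKM in ethylene and air (5 in *cbp20* roots, 4 in Col-0 roots, 2 in each shoot table) or, for *GA2OX1* and *GA2OX7* in *cbp20* shoots, listed at 0 in ethylene.

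A test over the tables was made with limma on the 4 log2 ratios of FPKM + 1, with the *cbp20* and the Col-0 table of a tissue standing in as repeats. It covered the 17757 loci with a mean of at least 1 FPKM over the 8 groups, 7 of the 10 members among them. *GA20OX3*, *GA3OX2* and *GA2OX7* were too low to enter. In roots 0 loci passed (0%), although 3119 had an unadjusted p under 0.05, and the smallest adjusted p was 0.0617. In shoots 415 loci (2.34%) passed an adjusted p of 0.05, 125 higher and 290 lower in ethylene, and the smallest adjusted p over all loci was 0.0461, so that every call lay close to the threshold. For the difference of the response between root and shoot 0 loci passed (0%), with 2828 under 0.05 unadjusted. For the difference of the response between *cbp20* and Col-0, taken as the same in roots and shoots, 0 loci passed (0%), with 713 under 0.05 unadjusted. With 4 ratios this test has little power for single genes, and *ERS2* did not pass it either, at an adjusted p of 0.0878 in roots and 0.10 in shoots (limma).

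**Figure D1:**
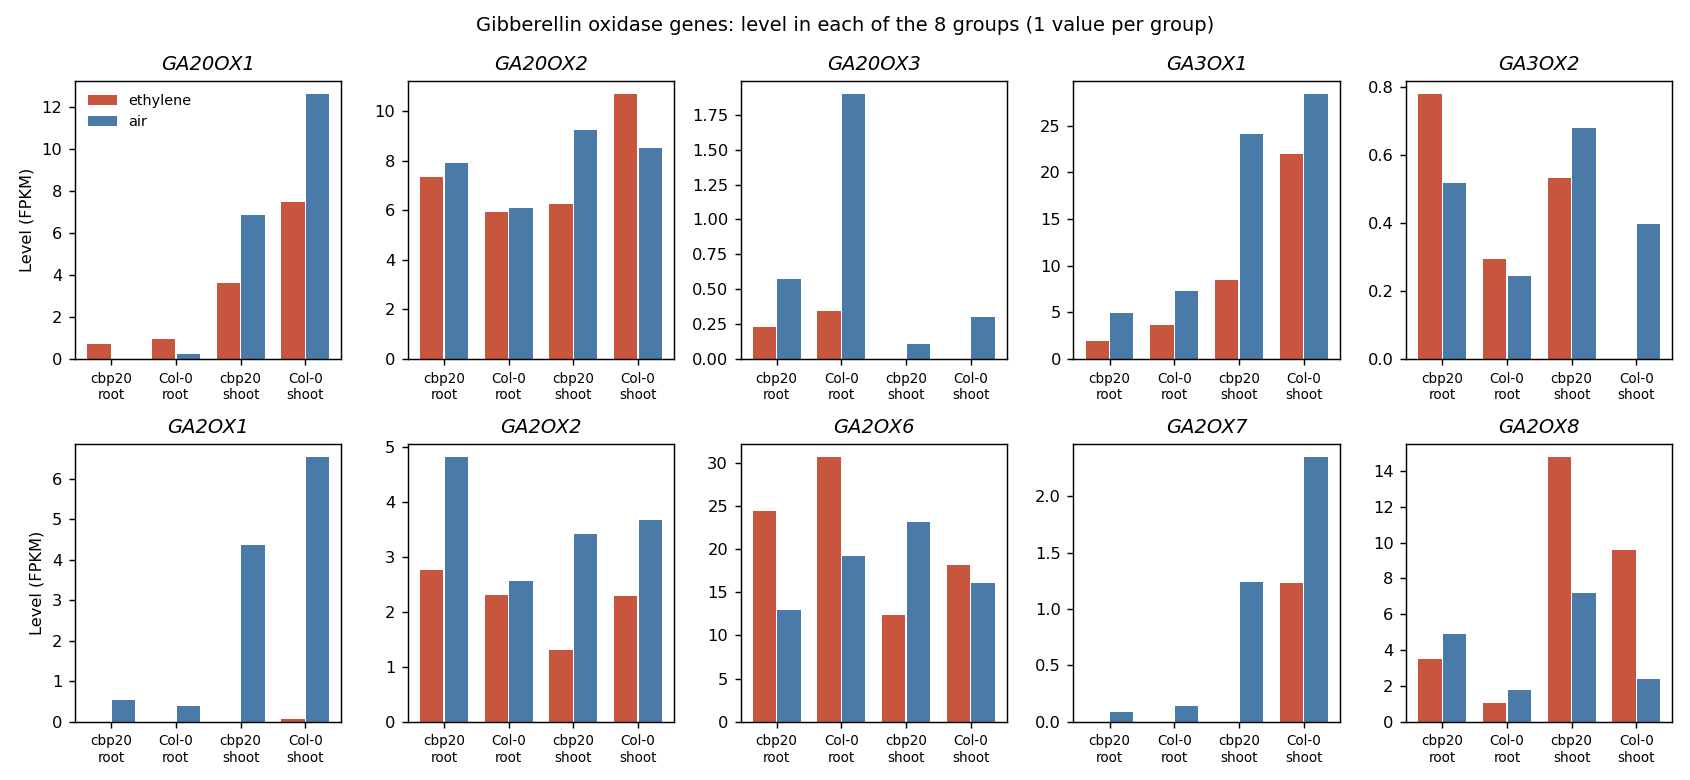
Level in FPKM (vertical axis, from 0, with its own range in each panel) of the 10 gibberellin oxidase genes in *cbp20* and Col-0 roots and shoots; the left bar of each pair is ethylene and the right bar air, and each bar is the authors' single value for a group of 2 libraries, so there are no error bars. *GA3OX1* is lower in ethylene in all 4 pairs, *GA2OX6* is higher in ethylene in both root pairs, and *GA2OX8* is higher in ethylene in both shoot pairs.

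*GA20OX1* encodes the GA20-oxidase with a leading part in stem elongation, and its RNA was found mainly in shoots. Its level was 0.708 FPKM in ethylene and 0 FPKM in air in *cbp20* roots, and 0.947 FPKM in ethylene and 0.247 FPKM in air in Col-0 roots. In shoots it was 3.63 FPKM in ethylene against 6.85 FPKM in air in *cbp20*, and 7.47 FPKM in ethylene against 12.6 FPKM in air in Col-0. The 4 shoot groups all lay above the 4 root groups, and the ethylene value was above the air value in roots and below it in shoots in both genotypes. In roots, with all 4 levels under 1 FPKM, the limma estimate was 0.71 on the log2(FPKM + 1) scale (SE 0.13, 2 tables, adjusted p = 0.136), and 2.30 with a pseudocount of 0.1 FPKM. In shoots it was 1.89-fold lower in ethylene in *cbp20* and 1.69-fold lower in Col-0, with an estimate of -0.72 (SE 0.13, limma adjusted p = 0.0783). The difference between the root and the shoot estimate was 1.43 (SE 0.19, limma adjusted p = 0.244), and 3.13 with that smaller pseudocount.

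*GA20OX2*, which acts with *GA20OX1* in growth, stayed between 5.94 and 10.7 FPKM in all 8 groups. Its level was 7.35 FPKM in ethylene and 7.91 FPKM in air in *cbp20* roots, and 5.94 FPKM in ethylene and 6.09 FPKM in air in Col-0 roots. Shoots of *cbp20* had 6.27 FPKM in ethylene against 9.25 FPKM in air, and Col-0 shoots had 10.7 FPKM in ethylene against 8.50 FPKM in air. No table passed the 1.5-fold line, and the shoot ratios had opposite signs in the 2 genotypes. The limma estimates were -0.06 in roots and -0.10 in shoots (SE 0.24 each, adjusted p = 0.918 and 0.833). It is the GA20-oxidase gene with the highest level in all 4 root groups, where the other members of the subfamily stayed under 2 FPKM.

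*GA20OX3* was a weak gene found mainly in roots. In Col-0 roots it had 0.345 FPKM in ethylene against 1.90 FPKM in air, a 5.49-fold difference, and in *cbp20* roots 0.230 FPKM in ethylene against 0.577 FPKM in air. In shoots it was listed at 0 in ethylene in both genotypes, against 0.110 FPKM in air in *cbp20* and 0.300 FPKM in air in Col-0. The ethylene value was thus the lower one in all 4 tables, but 7 of its 8 levels were under 1 FPKM.

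*GA3OX1* encodes the GA3-oxidase that supplies most active gibberellin during vegetative growth, and it was the strongest of the 5 genes for synthesis in shoots. Its level was 1.97 FPKM in ethylene and 4.89 FPKM in air in *cbp20* roots, and 3.66 FPKM in ethylene and 7.29 FPKM in air in Col-0 roots. The values in *cbp20* shoots were 8.48 FPKM in ethylene against 24.1 FPKM in air, and those in Col-0 shoots 21.9 FPKM in ethylene against 28.4 FPKM in air. All 4 ethylene values were below their air values, and every shoot group was above every root group. It was 2.48-fold lower in ethylene in *cbp20* roots, 1.99-fold lower in Col-0 roots, 2.84-fold lower in *cbp20* shoots and 1.29-fold lower in Col-0 shoots, so that it passed the 1.5-fold line in both genotypes of roots, as 6.81% of 16671 loci did in that direction. The limma estimate was -0.91 in roots (SE 0.29, adjusted p = 0.255) and -0.88 in shoots (SE 0.29, adjusted p = 0.184). Taken as the same in roots and shoots, the response in *cbp20* minus that in Col-0 was -0.60 (SE 0.33, limma adjusted p = 0.969). The log2 ratios of FPKM + 1 were -0.99 in *cbp20* roots and -0.83 in Col-0 roots, but -1.40 in *cbp20* shoots and -0.36 in Col-0 shoots. The response did not pass a test of difference between root and shoot (-0.03, SE 0.42, limma adjusted p = 0.979).

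*GA3OX2*, the partner of *GA3OX1* in germination and seedlings, stayed under 1 FPKM in all 8 groups. It had 0.777 FPKM in ethylene and 0.518 FPKM in air in *cbp20* roots, and 0.294 and 0.245 FPKM in Col-0 roots. Shoots of *cbp20* had 0.530 FPKM in ethylene and 0.679 FPKM in air, and in Col-0 shoots the gene was listed at 0 in ethylene and had 0.396 FPKM in air. At such levels the ratios have no firm ground, and no fold is given against the group at 0.

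*GA2OX1* encodes a GA2-oxidase that inactivates bioactive gibberellin, and its RNA was found almost solely in shoots kept in air. In roots it was listed at 0 in ethylene in both genotypes, against 0.543 FPKM in air in *cbp20* and 0.380 FPKM in air in Col-0. In *cbp20* shoots it was also listed at 0 in ethylene, against 4.36 FPKM in air. In Col-0 shoots it had 0.0573 FPKM in ethylene against 6.53 FPKM in air. Each ethylene group was thus at or close to 0, and below each air group. In roots the limma estimate was -0.55 (SE 0.17, adjusted p = 0.240), and -2.47 with a pseudocount of 0.1 FPKM. The fall in shoots passed the limma test, with an estimate of -2.63 on the log2(FPKM + 1) scale (SE 0.17, 2 tables, adjusted p = 0.0461). The size of that estimate is set by the pseudocount, being -5.44 with 0.1 FPKM, and the call was lost under 5 of 6 alternatives, whose adjusted p ranged from 0.0460 to 0.220 (limma). The response in roots minus that in shoots was 2.08 (SE 0.24, limma adjusted p = 0.241).

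*GA2OX2* encodes another enzyme of the same kind and was lower in ethylene in all 4 tables. It had 2.76 FPKM in ethylene and 4.82 FPKM in air in *cbp20* roots, and 2.30 FPKM in ethylene and 2.57 FPKM in air in Col-0 roots. The shoot levels were 1.31 FPKM in ethylene against 3.42 FPKM in air in *cbp20*, and 2.29 FPKM in ethylene against 3.67 FPKM in air in Col-0. The largest of the 4 differences was the 2.61-fold one in *cbp20* shoots and the smallest the 1.12-fold one in Col-0 roots. Past the line in both genotypes of shoots, it was one of 2 members lower there, with *GA20OX1*, of 6 that could be counted in both genotypes, where 11.1% of 16671 loci were lower. The limma estimate was -0.37 in roots (SE 0.21, adjusted p = 0.433) and -0.72 in shoots (SE 0.21, adjusted p = 0.152).

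*GA2OX6* had the highest level of the 10 genes in each of the 4 root groups but in none of the 4 shoot groups, where *GA3OX1* was above it in 3 and *GA2OX8* in 1. Its mean over the 8 groups was 19.6 FPKM, against 12.6 FPKM for *GA3OX1* and 7.75 FPKM for *GA20OX2*. In *cbp20* roots it had 24.4 FPKM in ethylene against 12.9 FPKM in air, and in Col-0 roots 30.7 FPKM in ethylene against 19.2 FPKM in air. Shoots of *cbp20* had 12.4 FPKM in ethylene against 23.1 FPKM in air, and Col-0 shoots had 18.2 FPKM in ethylene against 16.1 FPKM in air. Both root tables had it higher in ethylene. The sum of the 5 root markers was higher there too, at 380 FPKM in ethylene against 181 FPKM in air in *cbp20*. In Col-0 that sum was 310 FPKM against 165 FPKM. Of these markers *EXPA7*, *EXPA18* and *COBL9* were 1.5-fold or more higher in both genotypes, and *PIN2* and *PLT1* were not. The part of the markers in the *GA2OX6* levels was not tested. For *GA2OX6* the shoot tables went opposite ways in the 2 genotypes. It was the one member past the 1.5-fold line and higher in ethylene in both genotypes of roots, of 5 that could be counted in both, where 6.44% of 16671 loci were. The limma estimate was 0.76 in roots (SE 0.29, adjusted p = 0.305) and -0.34 in shoots (SE 0.29, adjusted p = 0.521), and their difference was 1.10 (SE 0.41, adjusted p = 0.325).

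*GA2OX7* was a weak gene seen above 1 FPKM in shoots alone. It was listed at 0 in ethylene in roots of both genotypes, against 0.0872 FPKM in air in *cbp20* roots and 0.138 FPKM in air in Col-0 roots. Its level in *cbp20* shoots was listed at 0 in ethylene, against 1.24 FPKM in air. In Col-0 shoots it had 1.23 FPKM in ethylene against 2.35 FPKM in air, a 1.91-fold difference. The ethylene value was below the air value in all 4 tables.

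*GA2OX8*, the second gene for an enzyme of the longer precursors, went the other way in shoots. In roots it had 3.52 FPKM in ethylene and 4.87 FPKM in air in *cbp20*, and 1.07 FPKM in ethylene and 1.77 FPKM in air in Col-0. In *cbp20* shoots it had 14.8 FPKM in ethylene against 7.18 FPKM in air, and in Col-0 shoots 9.61 FPKM in ethylene against 2.37 FPKM in air. The shoot ethylene values were the highest of the 8, and in roots ethylene stood below air in both genotypes. It was the one member past the line and higher in both genotypes of shoots, of the 6 that could be counted in both, where 5.85% of 16671 loci were. The limma estimate was -0.40 in roots (SE 0.22, adjusted p = 0.421) and 1.30 in shoots (SE 0.22, adjusted p = 0.0719). The response in roots minus that in shoots was -1.70 (SE 0.31, limma adjusted p = 0.245).

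**Figure D2:**
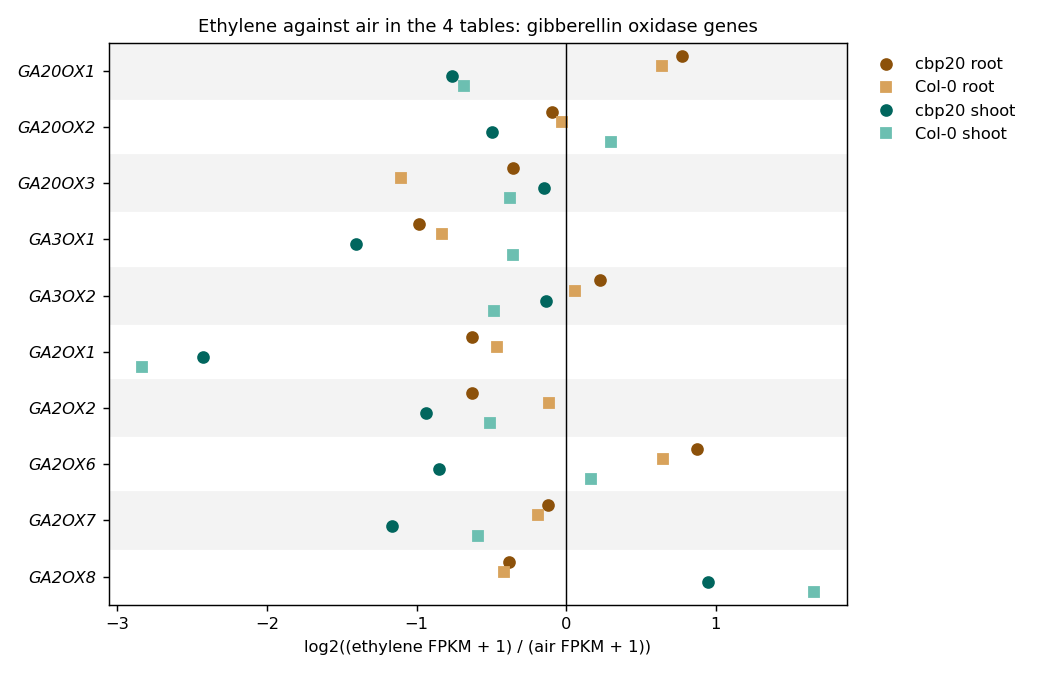
Log2 ratio of ethylene to air, each FPKM value plus 1 (horizontal axis), for the 10 genes, with 1 point for each of the 4 tables: circles for *cbp20*, squares for Col-0, brown for roots and green for shoots. *GA20OX3*, *GA3OX1*, *GA2OX1*, *GA2OX2* and *GA2OX7* lie left of 0 in all 4 tables, while *GA2OX8* lies at -0.38 and -0.42 in roots and at 0.95 and 1.65 in shoots.

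In summed level, the 5 genes for removal outweighed the 5 for synthesis in roots, and more so in ethylene. The *GA2OX* share of the summed FPKM of the 10 genes was 73.6% in ethylene and 62.6% in air in *cbp20* roots, and 75.3% in ethylene and 60.4% in air in Col-0 roots. In *cbp20* shoots it was 60.1% in ethylene and 48.9% in air, and in Col-0 shoots 43.9% in ethylene and 38.2% in air. The ethylene share was the higher one in all 4 tables. The *GA2OX* sum itself was higher in ethylene in roots, at 30.7 FPKM against 23.2 FPKM in air in *cbp20* and 34.1 FPKM against 24.1 FPKM in air in Col-0. In shoots it was 28.5 FPKM in ethylene against 39.3 FPKM in air in *cbp20*, and 31.4 FPKM in ethylene against 31.0 FPKM in air in Col-0, so that the higher share there went with the lower sum for synthesis. In roots this went with *GA2OX6*, which made up 79.6% of the *GA2OX* sum in ethylene against 55.6% in air in *cbp20*, and 90.1% against 79.8% in Col-0. The summed *GA20OX* and *GA3OX* level was 11.0 FPKM in ethylene against 13.9 FPKM in air in *cbp20* roots, and 11.2 FPKM in ethylene against 15.8 FPKM in air in Col-0 roots. In shoots it was 18.9 FPKM in ethylene against 41.0 FPKM in air in *cbp20*, and 40.1 FPKM in ethylene against 50.2 FPKM in air in Col-0. These sums and shares are descriptions with no test, and *GA3OX4* is left out of them. In roots *GA3OX4* had 4.40 FPKM in ethylene against 3.19 FPKM in air in *cbp20*, and 4.52 against 2.26 FPKM in Col-0. In both root groups in ethylene it was above *GA3OX1*. In shoots it had 5.14 FPKM in ethylene against 0.788 FPKM in air in *cbp20*, and 3.82 against 4.17 FPKM in Col-0.

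**Figure D3:**
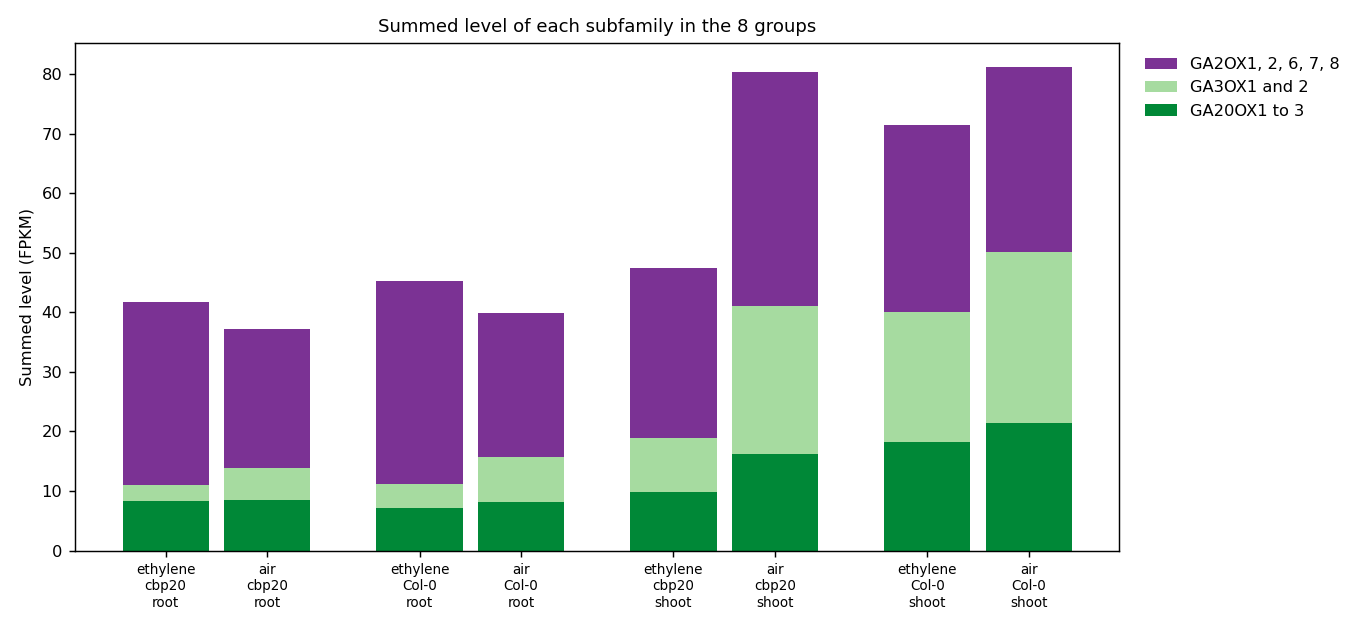
Summed FPKM (vertical axis, from 0) of the *GA20OX*, *GA3OX* and *GA2OX* genes, stacked, in the 8 groups, ethylene left of air in each pair. The lower 2 segments together are smaller in ethylene in each of the 4 pairs, with 18.9 against 41.0 FPKM in *cbp20* shoots as the widest gap.

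Levels in *cbp20* and Col-0 come from tables normalized separately and are set side by side with no test. *GA2OX8* was higher in *cbp20* in all 4 pairs, by 1.71 in roots in ethylene, 1.46 in roots in air, 0.62 in shoots in ethylene and 1.60 in shoots in air (log2 ratio of FPKM). *GA3OX1* was lower in *cbp20* in all 4 pairs, by a log2 ratio of -0.89 in roots in ethylene, -0.58 in roots in air, -1.37 in shoots in ethylene and -0.23 in shoots in air. *GA20OX1* was lower in *cbp20* shoots, at a log2 ratio of -1.04 in ethylene and -0.88 in air. For the ethylene response itself, none of the 7 genes tested differed between *cbp20* and Col-0 past the threshold, with adjusted p of at least 0.969 (limma). That test takes the genotype difference as the same in roots and shoots, and a difference confined to 1 tissue was not tested. *GA2OX6* had log2 ratios of FPKM + 1 of 0.87 in *cbp20* roots and 0.65 in Col-0 roots, and of -0.85 in *cbp20* shoots and 0.17 in Col-0 shoots.

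Of 37 other genes of gibberellin synthesis, removal, transport, perception and control, 24 entered the limma fit. In roots 0 of 24 passed, and 6 had an unadjusted p under 0.05, where 17.6% of all loci did. Both counts hold *ELA1* and *ELA2* as 2 genes, though they share 1 row. In shoots 1 row passed, which joins *ELA1* and *ELA2*, where 2.34% of all loci did. *ELA1* and *ELA2* encode related cytochrome P450 enzymes that inactivate gibberellins. They lie next to each other and share 1 row, so their reads were summed. That row had 7.10 FPKM in ethylene against 1.23 FPKM in air in *cbp20* shoots, and 26.1 FPKM in ethylene against 8.73 FPKM in air in Col-0 shoots. It rose in shoots by 1.67 on the log2(FPKM + 1) scale (SE 0.16, 2 tables, limma adjusted p = 0.0464, with 0.0277 to 0.220 over 7 alternatives, 5 of which lost the call). In roots the row had 6.86 FPKM in ethylene against 4.22 FPKM in air in *cbp20*, and 19.9 FPKM in ethylene against 13.8 FPKM in air in Col-0, and did not pass (0.54, SE 0.16, limma adjusted p = 0.229).

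The other 6 gibberellin oxidase genes were mostly near 0: *GA3OX3* was listed at 0 in all 8 groups, and *GA20OX4*, *GA20OX5*, *GA2OX3* and *GA2OX4* stayed under 1 FPKM. *GA3OX4*, known mainly from reproductive tissue, had 0.788 to 5.14 FPKM and passed the 1.5-fold line in 2 tables, both higher in ethylene. Of the 5 genes for early synthesis, 4 were counted in each table, and 0 were past the line but for 2 in Col-0 roots, *KS* (ent-kaurene synthase) and the row that joins *KAO1* (ent-kaurenoic acid oxidase) to a neighbour, both lower in ethylene. The median log2 ratio of these 4 lay between -0.27 and 0.25 over the tables. Of the 3 transport genes, 1 was counted in each table and was past the line there. *SWEET14*, for a sugar transporter that also carries gibberellin, had 0.202 FPKM in ethylene against 1.87 FPKM in air in *cbp20* roots, and the related *SWEET13* had 0.152 FPKM in ethylene against 2.38 FPKM in air in Col-0 roots. AT1G68570 had 1.20 FPKM in ethylene against 2.04 FPKM in air in *cbp20* shoots, and 1.83 FPKM in ethylene against 0.727 FPKM in air in Col-0 shoots.

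Among 10 genes of perception, 3 were lower and 0 higher in ethylene in *cbp20* roots, 2 and 0 in Col-0 roots, 3 and 0 in *cbp20* shoots, and, of 9 counted, 3 and 1 in Col-0 shoots. Over all loci 14.5% to 20.6% were lower and 13.2% to 15.2% higher in these tables. Their median log2 ratio was 0.04, -0.06, -0.50 and -0.21 in these tables. *RGL1*, which encodes a DELLA protein, had 14.6 FPKM in ethylene against 26.7 FPKM in air in *cbp20* shoots, and 18.9 against 29.0 FPKM in Col-0 shoots. *RGL3*, another DELLA gene, had 2.87 FPKM in ethylene against 7.98 FPKM in air in *cbp20* shoots, and 3.54 against 6.93 FPKM in Col-0 shoots. Both were past the line in both genotypes of shoots, as 11.1% of 16671 loci were in that direction, with limma estimates of -0.71 (SE 0.20, adjusted p = 0.145) and -1.01 (SE 0.26, adjusted p = 0.128). *SNE*, whose F-box protein is related to the one that marks DELLA proteins for destruction, had 0.841 FPKM in ethylene against 2.61 FPKM in air in *cbp20* roots, and 0.959 against 2.53 FPKM in Col-0 roots (limma estimate -0.91, SE 0.13, adjusted p = 0.103, and -1.42 with a pseudocount of 0.1 FPKM). The DELLA gene *RGA* stayed within 36.6 to 37.8 FPKM in roots and 66.9 to 69.1 FPKM in shoots.

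Of 9 genes for regulators of oxidase genes, 6 were counted in each root table and 7 in each shoot table, with 0 or 1 higher and 0 to 2 lower in a table, against 13.2% to 15.2% higher and 14.5% to 20.6% lower over all loci. Their median log2 ratio lay between -0.43 and -0.09 over the tables. *SOM*, which encodes a zinc finger protein known to hold down *GA3OX* genes in seeds, had 106 FPKM in ethylene against 39.9 FPKM in air in *cbp20* roots, and 82.2 against 23.6 FPKM in Col-0 roots (limma estimate 1.57, SE 0.34, adjusted p = 0.163). In shoots *SOM* had 61.4 FPKM in ethylene against 58.4 FPKM in air in *cbp20*, and 98.9 against 39.7 FPKM in Col-0 (limma estimate 0.68, SE 0.34, adjusted p = 0.312). *AGF1*, which encodes a DNA-binding protein of the *GA3OX1* promoter, had 0.806 FPKM in ethylene against 2.60 FPKM in air in *cbp20* shoots, and 0.647 against 1.21 FPKM in Col-0 shoots (limma estimate -0.71, SE 0.27, adjusted p = 0.214). In Col-0 roots *AGF1* had 5.11 FPKM in ethylene against 6.53 FPKM in air, and in *cbp20* roots 3.83 against 8.93 FPKM.

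**Figure D4:**
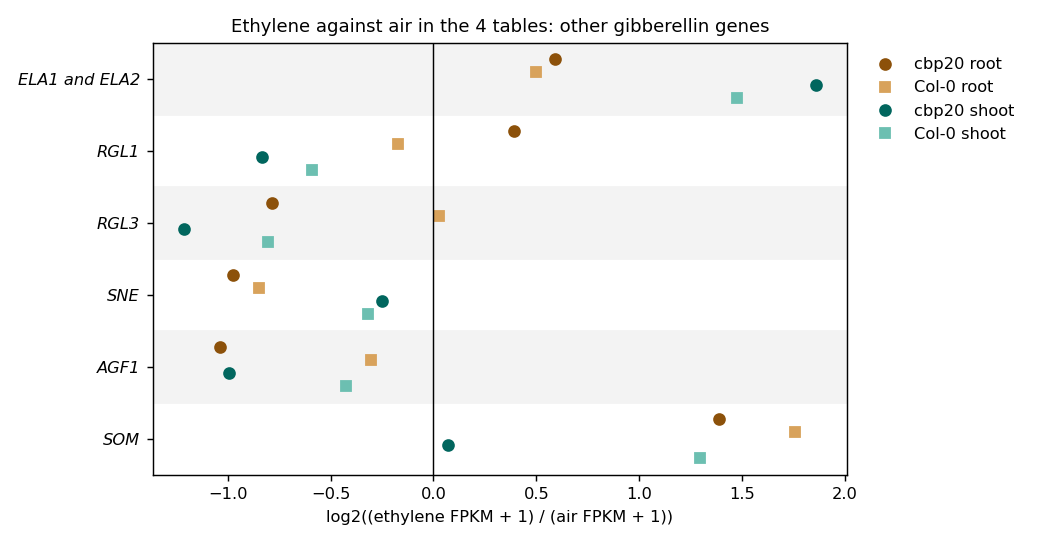
Log2 ratio of ethylene to air, each FPKM value plus 1 (horizontal axis), for the other gibberellin genes that were 1.5-fold or more apart in the same direction in both genotypes of a tissue; 1 point per table, circles for *cbp20*, squares for Col-0, brown for roots and green for shoots. The shared row of *ELA1* and *ELA2* lies right of 0 in all 4 tables and furthest in shoots, at 1.86 and 1.48, and *SNE* and *AGF1* lie left of 0 in all 4.

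The loci whose levels over the 8 groups were most like those of the leading member of each subfamily were found by Pearson's r of log2(FPKM + 1) among 13653 loci with a mean of at least 5 FPKM. For *GA3OX1* they were AT1G79720 (r = 0.984), AT2G03350 (0.984) and *DEG1* (0.983). For *GA20OX2* they were AT1G70360 (r = 0.949), AT1G22950 (0.939) and *CDPK1* (0.934), and for *GA2OX6* AT2G42080 (0.901), AT5G18525 (0.901) and the row of AT4G37090 and *SMP2* (0.897). The 8 points are not independent, since they share tissue, genotype and treatment, and with so many loci searched values of this size are a description and no finding.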

How the data were processed

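Poly(A) RNA of 16 libraries, 2 for each of 8 groups, had been sequenced. Alignment to the TAIR10 build with TopHat2 (version 2.0.9) and comparison with Cuffdiff (version 2.2.1) had been done by the authors, according to the submitters' processing notes. The 4 deposited tables give FPKM, made by the authors as 1 value per group and normalized within each table. The tables also hold the authors' fold changes, p-values and test status, which were not used. Read numbers for single libraries are not given in the sources used here. Depth and spread between libraries are therefore unknown. By the labels all root libraries shared 1 sequencing lane and each pair of shoot libraries was split over 2 lanes, so lane and tissue cannot be told apart in group values.

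Each table holds 35814 loci. Those that name no gene (1729) or carry a name that stands at several loci (2952) were left out. Log2 ratios of FPKM + 1 were fitted with limma 3.58.1 in R 4.3.3 (terms for tissue, and for tissue and genotype in the genotype test), with Benjamini-Hochberg adjustment over 17757 loci. The genotypes served as repeats, so p-values measure the spread between the 2 genotypes, which may hold real differences. Tested on simulated data for roots with a small share of loci shifted, the fit returned the shifts put in but called none of those loci. How many loci pass depends on that share, so the simulated calls may not carry over to these data. With so few ratios a missed threshold still says little. Calls past the fold used 1.5-fold and 1 FPKM, the minima of the authors' methods, with no p-value. The authors' figure legend on ethylene-regulated genes gives a 2-fold change, another FPKM filter and a corrected P under 0.05. Names were taken from RefSeq (28366 of 32982 matched), and sequences from TAIR10.1 of RefSeq, whose coordinates are not mixed with those of the tables. All 10 members were named, with other pathway genes past the fold in the same direction in both genotypes of a tissue, and the 3 loci most like the leading member of each subfamily. *GA3OX4*, *KS*, *KAO1*, *RGA*, *SWEET13*, *SWEET14* and AT1G68570 were named outside this rule, after their values were seen. The members and lists were chosen with earlier results of these data known. Alternatives were other fold and FPKM minima, another pseudocount, centring, repeated names kept, and other fitted terms.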

Additional observations from a re-analysis of the deposited data

Results flagged for a closer look

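Within both genotypes, 3 of the 10 genes stood on opposite sides of 0 in roots and in shoots, as 9.91% of all 31133 named loci did. Of the 7 with a mean of at least 1 FPKM, 2 did so, against 16.2% of the 17757 loci with such a mean. For *GA20OX1* the response in roots minus that in shoots was 1.43 on the log2(FPKM + 1) scale (SE 0.19), and 3.13 with a pseudocount of 0.1 FPKM. Its ethylene value was the higher one in both root tables and the lower one in both shoot tables, and the difference did not pass the limma test (adjusted p = 0.244, with 0.247 to 0.373 over 5 alternatives). For *GA2OX8* it was -1.70 (SE 0.31), with the ethylene value lower in both root tables and higher in both shoot tables, and it did not pass either (limma adjusted p = 0.245, with 0.180 to 0.373 over 6 alternatives). For *GA3OX2* it was 0.45, from levels under 1 FPKM in all 8 groups, and the difference was not tested because the gene was too low for the fit.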

How the results depend on the processing

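No paired analysis was possible because the deposited tables hold 1 value per group, and for the same reason no library was left out in turn. Depth is unknown.

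With a 2-fold minimum 1, 1, 3 and 2 members were past the fold in the tables of *cbp20* roots, Col-0 roots, *cbp20* shoots and Col-0 shoots, in place of 3, 4, 5 and 5. The share of all loci past 2-fold was not computed. With at least 5 FPKM the members past 1.5-fold were 1 in *cbp20* roots, 2 in Col-0 roots, 4 in *cbp20* shoots and 3 in Col-0 shoots. The members that reached 5 FPKM were *GA20OX2* and *GA2OX6* in *cbp20* roots, with *GA3OX1* besides in Col-0 roots. In *cbp20* shoots they were *GA20OX1*, *GA20OX2*, *GA3OX1*, *GA2OX6* and *GA2OX8*, with *GA2OX1* besides in Col-0 shoots. Of all loci, 25.9% to 35.1% passed 1.5-fold with 5 to 20 FPKM in the higher group, and 18.4% to 26.4% above that.

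By limma, 0 loci passed in roots and 415 in shoots. With a pseudocount of 0.1 FPKM these were 3 in roots and 0 in shoots, and with a mean of at least 5 FPKM 120 in roots and 906 in shoots. With repeated names kept they were 2 in roots, 2 in shoots and 3 for the difference between root and shoot. In shoots 0 passed with no filter on low values, with genotype added as a term, or with the shoot ratios alone. Under each of these alternatives except the 5 FPKM minimum the adjusted p in shoots of *GA2OX1* and of the row of *ELA1* and *ELA2* was over 0.05. With that minimum *GA2OX8* in shoots passed (1.30, limma adjusted p = 0.0491) and *GA2OX1* was not tested. The difference of the *GA2OX1* response, *cbp20* minus Col-0, turned from 0.12 to -0.25 with a pseudocount of 0.1 FPKM. Only the pseudocount differed between these 2 fits. Every ethylene level of *GA2OX1* was listed at 0 or at 0.0573 FPKM, so the pseudocount sets the size of its ratios. Of the other values for single genes, 243 kept their sign and their side of the threshold. Several alternatives leave an estimate unchanged, and few estimates passed the threshold at first, so this count is no check of the results.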
